A study of Homo sapiens with 8 samples.

Results

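The genes described here encode 10 proteins of the endoplasmic reticulum (ER) and of the unfolded protein response: XBP1, HERPUD1, SDF2L1, PDIA3, PDIA4, PDIA6, CALR, CANX, CRELD2 and MANF. They were taken as listed ER folding genes outside the HSP and DNAJ families. The count tables held 61533 gene identifiers, and all 10 were among the 18738 genes that passed the filter on low counts. RNA was sequenced in 8 libraries of 2 human carcinoma cell lines, A431 (epidermoid carcinoma) and CAL27 (squamous cell carcinoma). Each line received the solvent DMSO or an inhibitor labelled NEDD8i for 16 h, with 2 libraries in each of the 4 groups. Fresh medium was given together with DMSO or inhibitor in all groups. The sources used here give neither the identity nor the dose of the inhibitor. Each tumour type is represented by 1 line only, and separate cultures are not stated for the replicate libraries. The p-values therefore measure the spread between these libraries, which may be technical.

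Depth was 49037868 to 62509817 counts a library, with 19681 to 23822 genes detected. As a check of the labelled cell type, marker levels were summed in each library. All 12 squamous epithelial markers looked for had counts in at least 1 library, as had all 6 fibroblast markers. The summed level of the squamous markers ranged over 11483.5 to 11586 CPM (counts scaled by library size) in A431 under DMSO and 15183 to 15758 CPM under NEDD8i. In CAL27 the sum ranged over 16540.5 to 16637.5 CPM under DMSO and 22915 to 23668 CPM under NEDD8i. Single squamous markers moved both ways under NEDD8i, from log2 -0.76 to 1.90 in A431 and from log2 -2.18 to 2.01 in CAL27. The summed markers of plasma cells, professional secretory cells, were at most 0.134 CPM with JCHAIN at 0, and those of leukocytes at most 0.278 CPM with PTPRC and CD68 at 0. Fibroblast markers summed to 35.4 to 38.97 CPM under DMSO and 17.6 to 18.4 CPM under NEDD8i in A431, and to 20.8 to 24.1 and 6.49 to 10.8 CPM in CAL27. Endothelial markers, with KDR at 0, summed to 19.6 to 21.9 CPM under DMSO and 5.23 to 5.56 CPM under NEDD8i in A431, and to 5.95 to 6.63 and 10.3 to 10.7 CPM in CAL27. The share of counts from the mitochondrial genome lay between 1.02% and 3.15% and was lower under NEDD8i than under DMSO in both lines. The part of these shifts in the results below was not tested.

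Secreted and membrane proteins fold in the ER, and a load of unfolded protein there starts the unfolded protein response. Its sensors are IRE1 (gene ERN1), which splices the XBP1 transcript into the form that encodes the active transcription factor, PERK (EIF2AK3), which slows translation and favours ATF4, and ATF6, which is cut to release a transcription factor. Active XBP1 and ATF6 raise transcription of chaperones, disulfide isomerases and degradation factors. CANX and CALR are the lectin chaperones that hold glycoproteins, PDIA3 is the isomerase that works with them, and PDIA4 and PDIA6 are further disulfide isomerases. HERPUD1 is a scaffold of ER-associated degradation, SDF2L1 is a partner of the chaperone HSPA5, and CRELD2 and MANF are ER proteins that can be secreted under ER stress. NEDD8, a ubiquitin-like protein, activates the cullin-RING ubiquitin ligases. The gene counts come from 3′ ends of transcripts and do not separate spliced from unspliced XBP1.

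Many genes of the unfolded protein response carry the ER stress response element, the site of ATF6 beside the general factor NF-Y, near their start, and it is shown here for the genes that hold it. Promoter windows from 250 bases before to 50 bases after the annotated start were taken from RefSeq (GRCh38.p14), and 9 of the 10 genes had an entry, 15 promoters in all. PDIA3 had none. The element, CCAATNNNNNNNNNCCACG, was searched on both strands, and so was its short form ERSE-II, ATTGGNCCACG. The former stood in 27 of 35116 promoters (0.0769%) and in 7 of the 15 promoters here, which belong to XBP1, PDIA6, CALR, CANX and CRELD2. ERSE-II stood in 19 of the 35116 promoters (0.0541%), among them those of HERPUD1 and SDF2L1. PDIA4 and MANF held neither. Each match is shown 5′ to 3′ on the strand of the gene with 15 bases on either side, with the element in capitals. An element that lies on the opposite strand appears as its reverse complement.
XBP1: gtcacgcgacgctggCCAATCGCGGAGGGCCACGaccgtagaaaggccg
PDIA6: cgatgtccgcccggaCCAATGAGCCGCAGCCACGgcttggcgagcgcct
CALR: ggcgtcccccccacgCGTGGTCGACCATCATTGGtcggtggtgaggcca
CANX: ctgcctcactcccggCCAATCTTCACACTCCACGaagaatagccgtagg
CRELD2: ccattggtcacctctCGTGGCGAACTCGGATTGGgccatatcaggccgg
HERPUD1: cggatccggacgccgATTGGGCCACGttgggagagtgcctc
SDF2L1: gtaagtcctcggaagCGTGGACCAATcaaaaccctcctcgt

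These windows lie at chr22:28800588-28800636 (XBP1, minus strand), chr2:10812838-10812886 (PDIA6, minus strand), chr19:12938369-12938417 (CALR), chr5:179698763-179698811 (CANX), chr22:49918539-49918587 (CRELD2), chr16:56932010-56932050 (HERPUD1) and chr22:21642099-21642139 (SDF2L1), the others on the plus strand. Relative to the annotated start, the element spanned positions -52 to -34 in XBP1, -86 to -68 in PDIA6 and -151 to -133 in CANX. In CALR (-225 to -207) and CRELD2 (-80 to -62) it lay on the opposite strand. The short form spanned -117 to -107 in HERPUD1 and, on the opposite strand, -188 to -178 in SDF2L1. The PDIA6 element stood in the second of 2 annotated promoters, and the CANX element also fell inside 2 further annotated promoters of that gene. The parts of the element alone were common, with CCAAT in 34.6% and CCACG in 38.1% of all promoters. The ATF6 and XBP1 site TGACGTGG stood in 256 promoters (0.729%) and in none of the 15, and the ATF4 site TTGCATCA stood in 304 (0.866%), here in that of HERPUD1 alone. A match of letters describes the promoter and shows no binding.

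In A431, 4 of the 10 genes rose under NEDD8i (XBP1, SDF2L1, MANF and PDIA4), 4 fell (HERPUD1, PDIA3, CALR and CRELD2) and 2 did not pass the test (PDIA6 and CANX). Over all 18738 genes tested 22.5% rose and 21.1% fell. In CAL27, 3 rose (XBP1, SDF2L1 and CANX), 4 fell (PDIA4, CALR, CRELD2 and MANF) and 3 did not pass (HERPUD1, PDIA3 and PDIA6), against 23.2% higher and 26.4% lower over all genes. The median log2 change of the 10 was -0.02 in A431 and -0.04 in CAL27, and that of all genes tested was -0.01 and -0.04. XBP1 and SDF2L1 rose in both lines, CALR and CRELD2 fell in both, and MANF and PDIA4 rose in A431 and fell in CAL27. The test was edgeR's quasi-likelihood test with Benjamini-Hochberg adjustment over all genes, with calls at an adjusted p under 0.05. Scaling by library size alone moved the median of all genes to -0.11 in A431 and -0.12 in CAL27. It turned the calls over all A431 genes from 4224 higher and 3951 lower to 3466 higher and 4869 lower. Upper-quartile scaling also turned them, to 3701 higher and 4550 lower, with a median of -0.08 in A431. Without A431 NEDD8i 2 only 2 of the 10 fell in A431, since HERPUD1 and CRELD2 lost their calls. In CAL27 XBP1 alone rose under library size alone, without CAL27 DMSO 1 or without CAL27 NEDD8i 2. In cultures measured in bulk, a smaller share of cells making a transcript and less transcript per cell cannot be told apart.

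**Figure D1:**
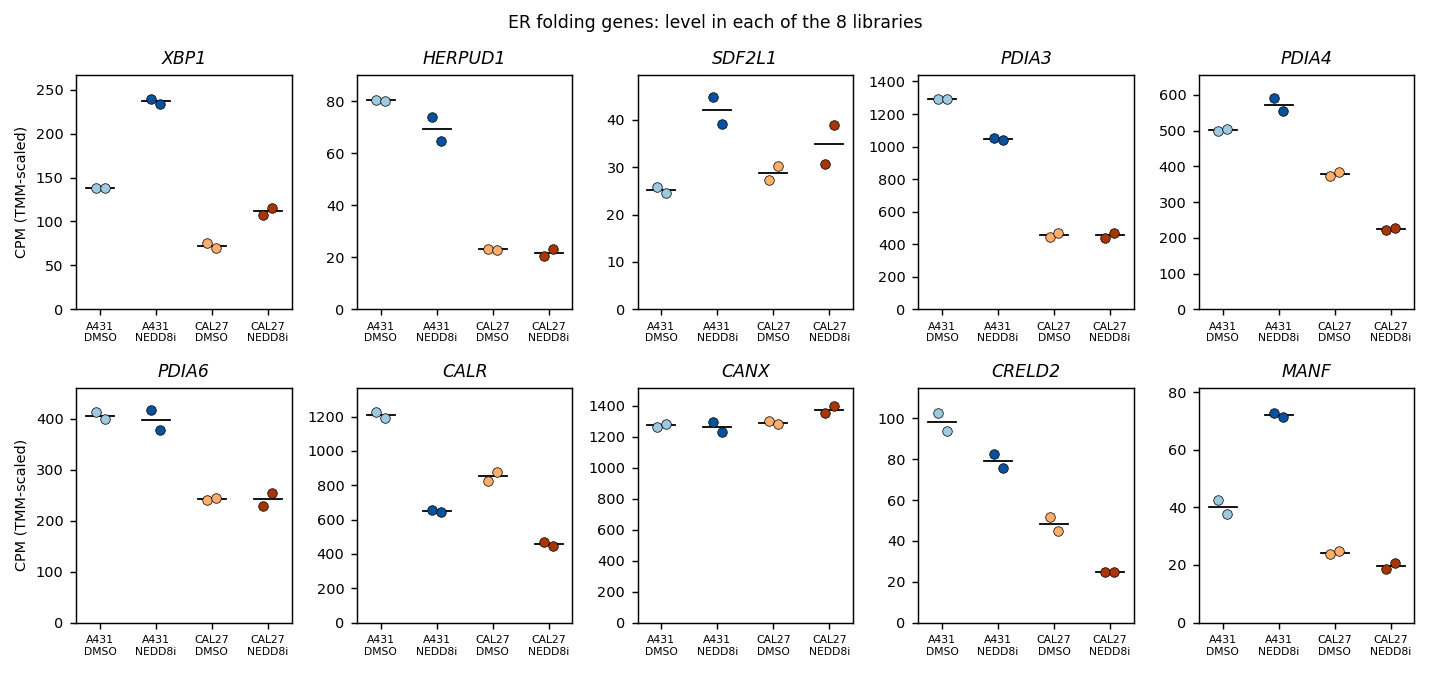
Level of each of the 10 genes in each of the 8 libraries, in CPM (TMM-scaled, axes from 0), with 1 point a library and a bar at the group mean. CALR is lower in the NEDD8i libraries of both lines, XBP1 is higher in them, and MANF is higher in A431 (72.7 and 71.2 against 42.7 and 37.7 CPM) and lower in CAL27 (18.5 and 20.6 against 23.9 and 24.7 CPM).

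XBP1, the transcription factor gene (ENSG00000100219.17, chr22:28794555-28800597), rose in both lines. In A431 it stood at 139 and 138 CPM under DMSO and 239 and 234 CPM under NEDD8i. In CAL27 it stood at 75.2 and 69.5 CPM under DMSO and 107 and 116 CPM under NEDD8i. The NEDD8i libraries lay above the DMSO libraries in each line without overlap, and the highest CAL27 library lay below the lowest A431 library. The change was log2 0.77 ± 0.05 (SE), 1.71-fold, in A431 (edgeR adjusted p = 3e-09) and log2 0.63 ± 0.06, 1.54-fold, in CAL27 (edgeR adjusted p = 3.92e-08). The difference between the responses was -0.15 (95% interval -0.31 to 0.01) and was not called (edgeR adjusted p = 0.158). Both calls held under every scaling and with each library left out. In A431 13.8% and in CAL27 19.3% of all genes tested rose at least as far. The full element shown above lies next to its start site.

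HERPUD1, the degradation scaffold (ENSG00000051108.15, chr16:56932142-56944864), carries the short element and the ATF4 site in its promoter. Its levels in A431 were 80.5 and 80.2 CPM under DMSO and 73.9 and 64.9 CPM under NEDD8i. Its levels in CAL27 were 23.2 and 22.9 CPM under DMSO and 20.6 and 22.97 CPM under NEDD8i. The A431 NEDD8i libraries lay below the DMSO libraries, and the CAL27 groups overlapped. HERPUD1 fell in A431 by 0.21 ± 0.08 on the log2 scale (edgeR adjusted p = 0.0342), and the CAL27 value was log2 -0.08 ± 0.08 (95% interval -0.26 to 0.10, edgeR adjusted p = 0.478). The A431 call was lost without A431 NEDD8i 2 (log2 -0.11, adjusted p = 0.416), without either A431 DMSO library (adjusted p = 0.119 and 0.0897) and without either CAL27 DMSO library (adjusted p = 0.0531 and 0.0532). The difference between the responses was 0.13 (95% interval -0.11 to 0.38) and did not pass.

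SDF2L1, which binds the chaperone HSPA5 in the ER (ENSG00000128228.5, chr22:21642302-21644299), also carries the short element and rose in both lines. A431 libraries gave 25.8 and 24.4 CPM under DMSO and 44.9 and 39.1 CPM under NEDD8i. CAL27 libraries gave 27.2 and 30.2 CPM under DMSO and 30.7 and 38.98 CPM under NEDD8i. The groups did not overlap in either line, though the CAL27 gap between the highest DMSO and the lowest NEDD8i library was small. The rise was log2 0.74 ± 0.11 in A431, 1.67-fold (edgeR adjusted p = 2.69e-05), and log2 0.28 ± 0.11 in CAL27, 1.21-fold (edgeR adjusted p = 0.0409). The CAL27 call was lost without CAL27 DMSO 1 (adjusted p = 0.22), without CAL27 NEDD8i 2 (log2 0.10, adjusted p = 0.527) and under library size alone (adjusted p = 0.145). Without CAL27 NEDD8i 1 the CAL27 rise was 0.44. The rise was smaller in CAL27 by 1.37-fold (log2 -0.46 ± 0.15, edgeR adjusted p = 0.0291). That difference was lost with upper-quartile scaling (adjusted p = 0.066), with DESeq2 (adjusted p = 0.0535) and without A431 DMSO 2, A431 NEDD8i 1, CAL27 DMSO 2 or CAL27 NEDD8i 1 (adjusted p = 0.0725, 0.152, 0.146 and 0.118).

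The 3 disulfide isomerases gave 3 patterns of calls. PDIA3 (ENSG00000167004.14, chr15:43746408-43773279), the partner of the lectin chaperones, fell in A431 and gave nearly the same level under both treatments in CAL27. It stood at 1293 and 1291 CPM under DMSO and 1049.5 and 1038 CPM under NEDD8i in A431. It stood at 445 and 466 CPM under DMSO and 439 and 469 CPM under NEDD8i in CAL27. The A431 groups did not overlap and the CAL27 groups did. PDIA3 fell by 0.31 ± 0.04 on the log2 scale in A431, 1.24-fold (edgeR adjusted p = 7.73e-06), and the CAL27 value was -0.01 (95% interval -0.09 to 0.08). The responses differed by log2 0.30 ± 0.06 (edgeR adjusted p = 0.000532), a call kept under all 15 alternatives of that comparison. Of the exonic bases of PDIA3, 16.02% lie inside exons of other genes, and its pseudogene PDIA3P1 took 345 to 831 counts a library, so the counts of PDIA3 carry that uncertainty.

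PDIA4 (ENSG00000155660.11, chr7:149003062-149028662), an isomerase with several thioredoxin-like domains, moved in opposite directions. A431 gave 500.1 and 504 CPM under DMSO and 589.8 and 554 CPM under NEDD8i. CAL27 gave 373 and 384 CPM under DMSO and 222 and 228 CPM under NEDD8i. The groups did not overlap in either line, and the order of DMSO and NEDD8i was turned around between the lines. PDIA4 rose by log2 0.19 ± 0.04, 1.14-fold, in A431 (edgeR adjusted p = 0.00159). It fell by 0.75 ± 0.04 on the log2 scale, 1.68-fold, in CAL27 (edgeR adjusted p = 1.53e-10). The responses differed 1.92-fold (log2 -0.94 ± 0.06, edgeR adjusted p = 3.04e-09). Under library size alone the A431 rise was 0.09 and was no longer called (adjusted p = 0.109), and the CAL27 fall and the difference were called under every alternative.

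PDIA6 (ENSG00000143870.13, chr2:10783391-10837977), the isomerase that also binds the sensor IRE1, passed the test in neither line. Its A431 levels were 412 and 400.2 CPM under DMSO and 417 and 378 CPM under NEDD8i. Its CAL27 levels were 241 and 244 CPM under DMSO and 229 and 255 CPM under NEDD8i. The treatment groups overlapped in both lines. The change was -0.03 in A431 (95% interval -0.15 to 0.08, edgeR adjusted p = 0.689) and 0.00 in CAL27 (95% interval -0.12 to 0.12, edgeR adjusted p = 1). The full element stands in 1 of its promoters, as in those of XBP1, which rose, and of CALR, which fell. Exons of ATP6V1C2 cover 29.7% of its exonic bases.

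Among the lectin chaperones, soluble CALR fell alike in both lines and membrane-bound CANX stayed near its DMSO level. CALR (ENSG00000179218.15, chr19:12938609-12944489) stood at 1227 and 1192 CPM under DMSO and 654 and 641 CPM under NEDD8i in A431. It stood at 823 and 879 CPM under DMSO and 468 and 443 CPM under NEDD8i in CAL27. All 4 NEDD8i libraries lay below all 4 DMSO libraries. CALR fell by 0.90 ± 0.04 on the log2 scale in each line, 1.87-fold in A431 (edgeR adjusted p = 1.71e-11) and 1.87-fold in CAL27 (edgeR adjusted p = 1.06e-11). The difference between the responses was 0.00 with a 95% interval of -0.13 to 0.13. In A431 17.9% and in CAL27 20.9% of all genes tested fell at least as far. Another gene without a symbol covers 14.2% of the exonic bases of CALR.

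CANX (ENSG00000127022.16, chr5:179678628-179731641) gave 1264 and 1283 CPM under DMSO and 1298 and 1233 CPM under NEDD8i in A431. It gave 1303 and 1280.4 CPM under DMSO and 1356 and 1396 CPM under NEDD8i in CAL27. The A431 groups overlapped, and the CAL27 NEDD8i libraries lay just above the DMSO libraries. The A431 value was -0.01 (95% interval -0.09 to 0.07), and the CAL27 rise was log2 0.09 ± 0.04, 1.06-fold (edgeR adjusted p = 0.049). The CAL27 call was lost under library size alone (adjusted p = 0.865) and without A431 NEDD8i 2, CAL27 DMSO 1, CAL27 DMSO 2 or CAL27 NEDD8i 2 (adjusted p = 0.0505, 0.0505, 0.131 and 0.135). Under library size alone CANX was instead lower in A431 (log2 -0.11, adjusted p = 0.0187). The difference between the responses was 0.10 (95% interval -0.01 to 0.21), and it passed with upper-quartile scaling (adjusted p = 0.0177) and with DESeq2 (adjusted p = 0.0208). CANX shares 6.86% of its exonic bases with CBY3 and HMGB3P22.

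The ER proteins that can be secreted, CRELD2 and MANF, parted in A431. CRELD2 (ENSG00000184164.15, chr22:49918634-49927540) stood at 103 and 93.7 CPM under DMSO and 82.4 and 75.7 CPM under NEDD8i in A431. It stood at 51.4 and 44.7 CPM under DMSO and 24.8 and 24.5 CPM under NEDD8i in CAL27. The NEDD8i libraries lay below the DMSO libraries in both lines. CRELD2 fell by 0.31 ± 0.08 on the log2 scale in A431, 1.24-fold (edgeR adjusted p = 0.00263), and by 0.96 ± 0.08 in CAL27, 1.95-fold (edgeR adjusted p = 1.84e-08). The CAL27 fall was the deeper by 1.57-fold (log2 -0.65 ± 0.11, edgeR adjusted p = 0.000164). Without A431 NEDD8i 2 the A431 fall was -0.24 and did not pass (adjusted p = 0.0576). Its element lies between CRELD2 and ALG12, whose promoter also holds it.

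MANF (ENSG00000145050.19, chr3:51385291-51389397) gave the widest gap between the responses of the lines among the 10 genes. A431 libraries stood at 42.7 and 37.7 CPM under DMSO and 72.7 and 71.2 CPM under NEDD8i. CAL27 libraries stood at 23.9 and 24.7 CPM under DMSO and 18.5 and 20.6 CPM under NEDD8i. Both A431 NEDD8i libraries lay above the DMSO libraries, and both CAL27 NEDD8i libraries lay below theirs. MANF rose by log2 0.84 ± 0.08, 1.79-fold, in A431 (edgeR adjusted p = 2.3e-07) and fell by 0.31 ± 0.09 on the log2 scale, 1.24-fold, in CAL27 (edgeR adjusted p = 0.00647). The responses differed 2.22-fold (log2 -1.15 ± 0.12, edgeR adjusted p = 9.19e-07). The CAL27 call was lost without CAL27 DMSO 2 (adjusted p = 0.0709) and without CAL27 NEDD8i 1 (adjusted p = 0.0655), and the A431 call and the difference were called under every alternative.

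**Figure D2:**
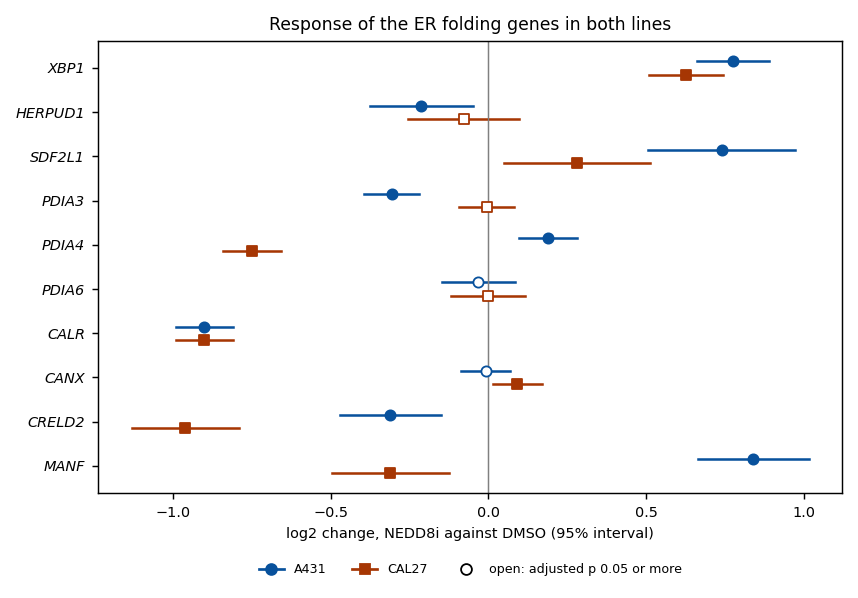
Log2 change under NEDD8i against DMSO (x axis) for the 10 genes in A431 (circles) and CAL27 (squares), with 95% intervals from the edgeR fit and open symbols where the adjusted p was 0.05 or more. MANF and PDIA4 lie right of 0 in A431 and left of it in CAL27, and the symbols of CALR coincide at -0.90.

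The response to NEDD8i itself was compared between the lines. It differed for 5 of the 10 genes, higher in CAL27 for PDIA3 and lower in CAL27 for MANF, PDIA4, CRELD2 and SDF2L1. Over all genes tested 14.2% were higher and 19.8% lower by this comparison. With upper-quartile scaling 3184 of all genes were called higher and 3239 lower, against 2658 and 3711 in the main fit. The CAL27 and A431 responses were computed from separate controls. XBP1, HERPUD1, PDIA6, CALR and CANX did not pass. Their 95% intervals of the difference reached from -0.31 (XBP1) to 0.38 (HERPUD1) at the widest.

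Under DMSO, 8 of the 10 genes were lower in CAL27 than in A431 and none was higher, where 29.9% of all genes tested were higher and 29% lower. HERPUD1 stood at 23.01 ± 0.216 CPM (SD, n = 2) in CAL27 and 80.4 ± 0.227 CPM in A431, 3.49-fold lower (log2 -1.80 ± 0.08, edgeR adjusted p = 3.71e-12). PDIA3 stood at 456 ± 14.9 against 1292 ± 1.68 CPM, 2.83-fold lower (log2 -1.50 ± 0.04, edgeR adjusted p = 5.17e-15). CRELD2 was 2.04-fold, XBP1 1.91-fold, PDIA6 1.68-fold, MANF 1.65-fold, CALR 1.42-fold and PDIA4 1.33-fold lower. Both CAL27 libraries lay below both A431 libraries for these 8 genes, as for 37.8% of all genes tested. SDF2L1 (log2 0.19, 95% interval -0.04 to 0.42) and CANX (log2 0.02, 95% interval -0.06 to 0.10) did not pass. Under library size alone, which moved the median of all genes to 0.12, SDF2L1 (adjusted p = 0.0454) and CANX (adjusted p = 0.0257) were called higher in CAL27. The median of the 10 genes was -0.74 and that of all genes tested 0.05.

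**Figure D3:**
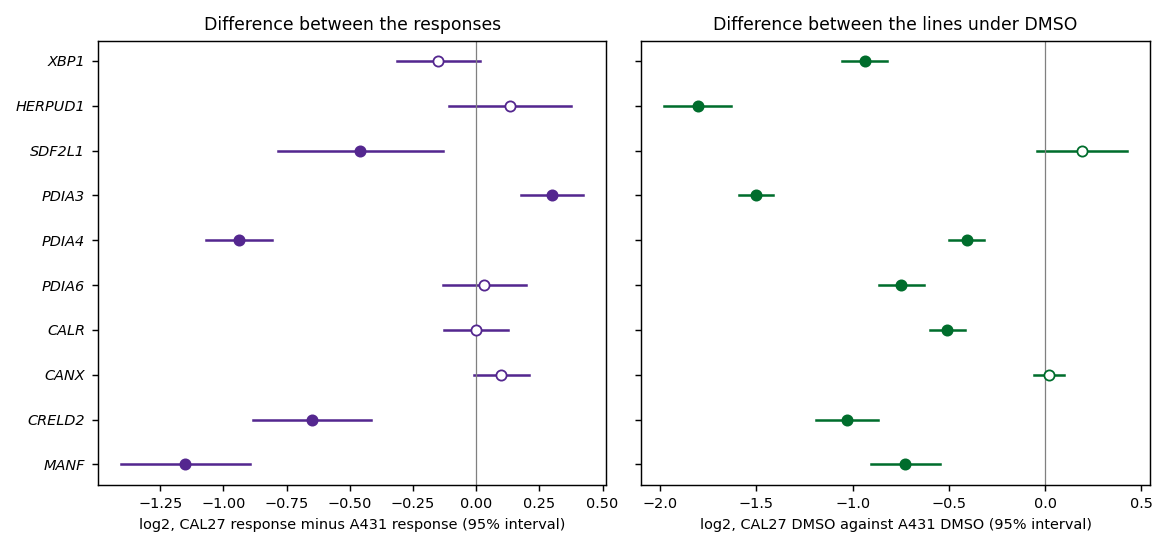
The left panel plots the difference in response (CAL27 minus A431), the right panel CAL27 against A431 under DMSO, both in log2 with 95% intervals from the edgeR fit and open symbols where the adjusted p was 0.05 or more. MANF lies farthest from 0 on the left at -1.15 and HERPUD1 on the right at -1.80, and SDF2L1 and CANX are open on the right.

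The other genes of the secretory pathway were read from 10 lists, of which 159 genes outside the 10 were tested. In A431 81 rose and 26 fell, and in CAL27 81 rose and 37 fell. These are 50.9% and 16.4% of the 159 in A431 and 50.9% and 23.3% in CAL27, against 22.5% and 21.1% and 23.2% and 26.4% of all genes tested, with which the counts of each list below are to be compared. Under library size alone the counts were 73 and 41 in A431 and 62 and 45 in CAL27. Among the 9 tested sensors and transducers, 3 rose and 3 fell in A431 and 2 rose and 5 fell in CAL27. ERN1, which encodes IRE1, stood at 7.70 and 8.32 CPM under DMSO and 23.7 and 26.3 CPM under NEDD8i in A431 (log2 1.64 ± 0.13, edgeR adjusted p = 2.13e-08). In CAL27 its libraries overlapped and the change was log2 0.14 ± 0.13 (edgeR adjusted p = 0.408), and the responses differed by -1.50 (edgeR adjusted p = 6.24e-06). EIF2AK3, which encodes PERK, gave log2 0.22 ± 0.15 in A431 and rose in CAL27 (log2 0.47 ± 0.15), a call lost without CAL27 DMSO 2 (adjusted p = 0.179) or CAL27 NEDD8i 1 (adjusted p = 0.0814). EIF2AK3 passed in A431 without A431 DMSO 2 (adjusted p = 0.045). ATF6 gave log2 -0.01 ± 0.06 in A431 and fell in CAL27 (log2 -0.21 ± 0.06), a call lost without CAL27 DMSO 1 (adjusted p = 0.142). Of the proteases that cut ATF6, MBTPS1 fell in A431 (log2 -0.46 ± 0.05) and in CAL27 (log2 -0.65 ± 0.05). MBTPS2 rose in A431 (log2 0.49 ± 0.07) and fell in CAL27 (log2 -0.72 ± 0.08). Without CAL27 NEDD8i 1 only 1 gene of the list rose in CAL27.

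In the PERK and ATF4 arm 9 of 11 genes rose and none fell in A431, and 9 rose and 2 fell in CAL27 (1 without CAL27 DMSO 1). ATF4 rose in both lines (log2 0.34 ± 0.05 and log2 0.50 ± 0.05), as did DDIT3, which encodes the factor CHOP (log2 1.26 ± 0.15 and log2 1.55 ± 0.14). The called gene with the largest rise was TRIB3 in A431 (log2 2.01 ± 0.05) and CHAC1, a glutathione-degrading enzyme, in CAL27 (log2 3.22 ± 0.09). The HSP and DNAJ chaperones of the ER, counted with SIL1 and kept apart from the 10 genes, rose in 9 of 11 cases in A431 and fell in none. In CAL27 4 of the 11 rose and 5 fell, 3 without CAL27 DMSO 2. HSPA5, the main chaperone of the ER, rose in A431 (log2 0.52 ± 0.05) and fell in CAL27 (log2 -0.18 ± 0.05), where the call was lost without CAL27 DMSO 2 (adjusted p = 0.0992). HSP90B1 gave log2 -0.07 ± 0.04 in A431, was called lower there under library size alone (adjusted p = 0.00133) and with upper-quartile scaling (adjusted p = 0.00703), and fell in CAL27 (log2 -0.68 ± 0.04). The response was lower in CAL27 for 9 of the 11, among them HSPA5 (-0.70), HSP90B1 (-0.61) and HYOU1 (-1.15), and higher for none, though DNAJC1 was called higher with RLE, upper-quartile or library size scaling, with at least 1 CPM in a group and without CAL27 DMSO 2. The promoters of HSPA5 and HSP90B1 hold the full element of XBP1 and CALR, and that of HYOU1 the short element of HERPUD1 and SDF2L1. Over all promoters, 16 tested genes held the full and 15 the short element, and both sets moved both ways in each line. A link of the element to the response was not tested.

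The remaining lists held both directions, and "furthest" is used among the called genes of a list. Other thiol oxidoreductases rose in 9 and fell in 2 of 19 genes in A431 and rose in 12 and fell in 4 in CAL27. ERO1A, which passes oxidizing power to the isomerases, rose furthest in A431 (log2 1.24 ± 0.05) and QSOX1 in CAL27 (log2 1.32 ± 0.05). TMX4 fell furthest in both lines (log2 -1.46 ± 0.14 and log2 -1.11 ± 0.11). Upper-quartile scaling and library size alone each gave 4 lower in A431. Degradation genes rose in 16 and fell in 2 of 25 in A431 and rose in 11 and fell in 5 in CAL27. SELENOS rose furthest in both lines (log2 0.80 ± 0.07 and log2 1.20 ± 0.07). RNF5 fell furthest in A431 (log2 -0.62 ± 0.07) and MAN1B1 in CAL27 (log2 -1.77 ± 0.06). MAN1B1 also fell in A431 (log2 -0.49 ± 0.06). The lower count in A431 was 4 with upper-quartile scaling, library size alone or at least 1 CPM in a group, and that in CAL27 was 3 without CAL27 DMSO 1. Translocation genes rose in 11 and fell in 3 of 24 in A431 and rose in 16 and fell in 4 in CAL27. The lower count in A431 was 6 with upper-quartile scaling and 8 with library size alone, but 0 without A431 DMSO 1 or A431 NEDD8i 2 and 1 without A431 NEDD8i 1. In CAL27 it was 2 without CAL27 DMSO 1. SEC61A2, a channel subunit, rose furthest in both lines (log2 1.35 ± 0.21 and log2 1.09 ± 0.22). Export and retrieval genes rose in 10 and fell in 2 of 20 in A431 and rose in 13 and fell in 2 in CAL27, with MCFD2, a cargo receptor subunit, rising furthest (2.82-fold and 2.19-fold) and KDELR3 falling furthest (log2 -1.33 ± 0.18 and log2 -1.83 ± 0.21). Library size alone gave 4 lower in A431 and 8 higher and 5 lower in CAL27. The lower count in A431 was 1 without a filter and with any library but CAL27 NEDD8i 1 left out, and that in CAL27 was 4 without CAL27 NEDD8i 1.

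Genes of N-glycan transfer and trimming rose in 6 and fell in 4 of 19 in A431 and rose in 5 and fell in 2 in CAL27. UGGT1, the folding sensor that returns glycoproteins to CANX and CALR, fell furthest in CAL27 (log2 -0.61 ± 0.05). With upper-quartile scaling the A431 counts were 4 higher and 5 lower. In A431 library size alone turned the balance to 3 higher and 7 lower, and the lower count was 0 without A431 DMSO 2 or A431 NEDD8i 2, 1 without A431 NEDD8i 1, CAL27 DMSO 1 or CAL27 DMSO 2 or without a filter, and 2 without A431 DMSO 1. In CAL27 3 rose under library size alone and without CAL27 NEDD8i 1. Calcium handling genes rose in 6 and fell in 6 of 14 in A431 and rose in 8 and fell in 5 in CAL27, with ATP2A3, a calcium pump, falling furthest in both (log2 -1.63 ± 0.42 and log2 -3.20 ± 0.56), the A431 call being lost without A431 DMSO 1 (adjusted p = 0.0652). Without either A431 DMSO library 3 fell in A431, and under library size alone 5 rose in CAL27. Prolyl isomerases rose in 2 and fell in 4 of 7 in A431 and rose in 1 and fell in 3 in CAL27. FKBP14 rose in both lines (log2 0.45 ± 0.08 and log2 0.58 ± 0.07). FKBP7 fell furthest in both (log2 -1.31 ± 0.48 and log2 -2.37 ± 0.55). Its A431 value ranged from -2.24 to -0.75 with a library left out, and its A431 call did not hold in every one of those fits. PPIC also fell in both (log2 -0.93 ± 0.14 and log2 -0.82 ± 0.12). In A431 only 1 rose with upper-quartile scaling, library size alone or without A431 NEDD8i 1.

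**Figure D4:**
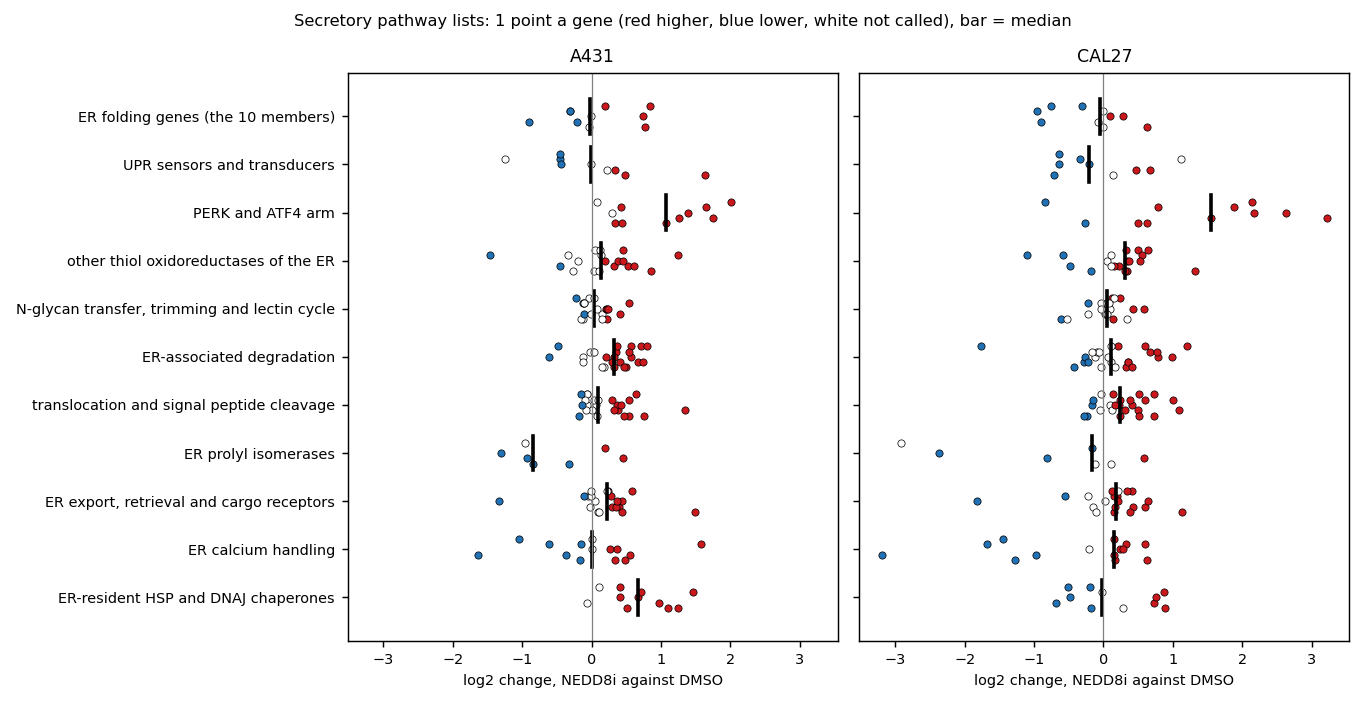
Log2 change under NEDD8i against DMSO in each line (x axis, shared) for the 10 genes (top) and 10 other lists of the secretory pathway, with 1 point a gene (red called higher, blue called lower, white not called) and a bar at the list's median. The 10 genes spread to both sides of 0 in each line, and the HSP and DNAJ chaperones lie mostly right of 0 in A431 and on both sides in CAL27.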

How the data were processed

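Libraries were made with a QuantSeq 3′ FWD kit from RNeasy Plus RNA, per the labels' protocols. The authors deposited whole-number counts per gene, 1 table a library. Reads were aligned to GRCh38 with STAR, per the submitters' processing notes (release not given in the sources used here), and counted with featureCounts 2.0.8 over GENCODE 39 basic exons, per the file headers. Counting ignored strand, took mates singly (70.2% to 76.7% of the counts from 1 to 40 were even) and dropped multi-mapping reads, so copies and overlapping or antisense genes are uncertain and counting errors are too small.

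Symbols were found for 61369 of 61533 identifiers. CPM were computed here with TMM factors of edgeR 4.0.16 (R 4.3.3). filterByExpr left 18738 genes. A single edgeR fit over the 4 groups (4 residual and 12.3 prior degrees of freedom, common coefficient of variation 0.0852) gave 4 contrasts: NEDD8i against DMSO in each line, their difference, and CAL27 against A431 under DMSO. No library was a copy of another: within groups, the chi-square of the counts was 6.26 to 13.0 per degree of freedom. Members and lists were chosen with earlier results of these data known. Named were the 10 genes, their tested paralogs, HSPA5, HSP90B1, DDIT3, ATF4, ERN1, EIF2AK3 and ATF6, and, in each list and line, the 3 called genes with the largest rise and the 3 with the largest fall. Of the latter the text above gives only a part, and not the first of each direction in every list. Alternatives were RLE, upper-quartile and no composition scaling, DESeq2 1.42.0, other filters, each line alone, a replicate block and each library left out. Promoters came from RefSeq, GRCh38.p14.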

Additional observations from a re-analysis of the deposited data

Results flagged for a closer look

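For 56 of the genes named, 5 of them among the 10 ER folding genes, the response to NEDD8i differed between the lines by the test of the difference itself (edgeR adjusted p under 0.05). By that test 14.2% of all genes tested were higher and 19.8% lower. List genes were named for the largest called changes in a line of these data. That choice favours a difference between the lines, so the count of 56 does not describe the lists. Values are the CAL27 response minus the A431 response in log2. Among the 10 genes these were MANF -1.15, PDIA4 -0.94, CRELD2 -0.65, SDF2L1 -0.46 and PDIA3 0.30. Of their paralogs, SDF2 gave 1.10 and P4HB -0.22.

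In the list of HSP and DNAJ chaperones, which also holds SIL1, the named genes that were called were lower. They were HYOU1 -1.15, DNAJC25 -0.81, HSPA5 -0.70, SIL1 -0.63, HSP90B1 -0.61 and HSPA13 -0.59. Sensors and transducers gave ERN1 -1.50, MBTPS2 -1.20 and MBTPS1 -0.19. In the PERK and ATF4 arm CHAC1 gave 1.47, PPP1R15A 1.23, DDIT4 -0.92 and CEBPB -0.70. Thiol oxidoreductases gave TXNDC11 -0.72, ERO1A -0.68, QSOX2 -0.50 and QSOX1 0.47. Prolyl isomerases gave FKBP11 0.95 and FKBP9 -0.36.

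Degradation genes gave MAN1B1 -1.28, SEL1L -0.93, EDEM3 -0.68, EDEM1 -0.50, UBE2J1 -0.39, DERL1 0.22, RNF5 0.34, SELENOS 0.39 and UBE2J2 0.67. Genes of N-glycan transfer and trimming gave UGGT1 -0.49, ALG5 -0.46, STT3B -0.37, RPN1 0.19, PRKCSH 0.28, OST4 0.38 and DAD1 0.50. Translocation genes gave SSR1 -0.53, SEC61A1 -0.32, SRP68 0.30, SEC61G 0.47 and SRP14 0.67. Export genes gave TMED10 -0.45, MCFD2 -0.37, SEC23B -0.18 and SAR1A 0.63. Calcium handling genes gave ITPR1 -0.97, STIM1 -0.40, ATP2A2 -0.32, CALU 0.29 and TMCO1 0.48.

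Beside SDF2L1, 9 of these calls were lost when 1 library was left out. The highest adjusted p with a library left out was 0.149 for MBTPS1 and 0.264 for SEC23B (both also not called with RLE, upper-quartile or library size scaling or DESeq2), 0.168 for DERL1, 0.154 for ITPR1, 0.106 for RNF5, 0.105 for DNAJC25, 0.0695 for ALG5, 0.0668 for RPN1 and 0.0541 for OST4.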

How the results depend on the processing

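With the other scalings, filters and tools and with each library left out, the numbers of the 10 genes called lay between 6 and 8 in A431, 5 and 7 in CAL27, 4 and 5 for the difference and 8 and 10 between the lines, with the moves by direction given above. Of 1240 counts of called genes in the other lists, 94 moved by over 1.5 times. Of 300 values of the 10 genes under other settings, 280 kept their direction and side of the threshold, 5 lost and 5 gained a call and 10 changed sign. Of 320 with a library left out, 280 kept both, 18 lost a call and 22 changed sign. Within a line, DMSO and NEDD8i libraries with the same number did not deviate together (r of the 2 replicate differences across genes 0.0167 in A431 and -0.0446 in CAL27). What these libraries share beyond the number is not stated. With the replicate block 8, 7, 5 and 8 of the 10 genes were called, as without it, and 8099, 9216, 6417 and 10917 of all genes against 8175, 9291, 6369 and 11045.

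The values that changed sign were not called on either side of 0, and the cause was not tested. PDIA3 in CAL27 gave 0.027 with RLE factors, 0.026 with DESeq2, 0.00031 without a filter and 0.023 with the line alone. PDIA6 in CAL27 gave 0.032 with RLE factors, 0.0043 with upper-quartile factors, 0.031 with DESeq2, 0.0052 without a filter, 0.0033 with at least 1 CPM in a group and 0.028 with the line alone. P4HB in A431 gave -0.035 with upper-quartile factors and -0.068 with library size alone, and TXNDC5 in CAL27 gave -0.036 with library size alone. With a library left out, the ranges in A431 were -0.10 to 0.049 for PDIA6, -0.040 to 0.039 for CANX, -0.036 to 0.028 for ATF6 and -0.64 to 0.64 for CLGN. Those in CAL27 were -0.050 to 0.044 for PDIA3, -0.074 to 0.068 for PDIA6, -0.00041 to 0.34 for ERN1 and -0.086 to 0.16 for TXNDC5. For the difference they were -0.052 to 0.12 for PDIA6 and -0.053 to 0.060 for CALR. Depth was no limit for the 10 genes, which had 997 to 84572 counts in a library.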

Other observations

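Of the 159 secretory pathway genes outside the 10 that were tested, 86 were lower and 46 higher in CAL27 than in A431 under DMSO, where 29% and 29.9% of all genes tested were lower and higher. The oxidoreductases were lower in 13 and higher in 5 of 19 genes and the translocation genes lower in 17 and higher in 6 of 24. Degradation genes were lower in 8 and higher in 10 of 25.

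Of 10 paralogs of the ER folding genes, 8 were tested. SDF2, the constitutive relative of SDF2L1, gave 46.98 and 45.98 CPM under DMSO and 39.4 and 35.8 CPM under NEDD8i in A431. In CAL27 it gave 37.1 ± 1.60 CPM (SD, n = 2) under DMSO and 64.3 ± 0.590 CPM under NEDD8i. It fell in A431 (log2 -0.31 ± 0.07, SE, edgeR adjusted p = 0.0026), which was lost without A431 NEDD8i 2 (adjusted p = 0.0701), and rose in CAL27 (log2 0.79 ± 0.07, edgeR adjusted p = 7.09e-08). PDIA5 fell in both lines (log2 -0.45 ± 0.11 and log2 -0.48 ± 0.12), the latter lost without CAL27 DMSO 2 (adjusted p = 0.0548). P4HB, the main disulfide isomerase, gave log2 0.03 ± 0.04 in A431 and fell in CAL27 (log2 -0.18 ± 0.04). CDNF, the relative of MANF, gave log2 -1.50 ± 0.65 and log2 -1.62 ± 0.84 and was not called in either line, but passed in A431 with at least 1 CPM in a group (adjusted p = 0.0175) and with the line alone (adjusted p = 0.0248). CRELD1 (log2 1.11 ± 0.95 and log2 2.23 ± 1.13), CLGN (log2 -0.15 ± 0.67 and log2 -0.53 ± 0.69), HERPUD2 (log2 0.18 ± 0.09 and log2 0.16 ± 0.09) and TXNDC5 (log2 -0.19 ± 0.15 and log2 0.04 ± 0.15) were not called either, in A431 and CAL27 in that order. HERPUD2 passed in A431 without A431 DMSO 2 or A431 NEDD8i 2 (adjusted p = 0.0468 and 0.0403) and in CAL27 with the line alone (adjusted p = 0.0258). Exons of other genes hold 36.05% of the exonic bases of CRELD1 and 83.1% of those of TXNDC5. CALR3 and PDIA2 were at or near 0 in all libraries and were not tested.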
